A study of Mus musculus with 6 samples.

Results

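The 9 genes described here encode the class I histone deacetylases Hdac1, Hdac2, Hdac3 and Hdac8 and 5 scaffolds or engines of the corepressor complexes that carry such enzymes: Rcor1, Ncor1, Sin3a, Mta2 and Chd4. They were chosen by gene symbol, and all 9 were among the 16022 symbols of the count table and among the 12875 genes that passed the filter on low counts. The RNA came from mouse bone marrow LSK cells, a fraction sorted as negative for lineage markers, high for Sca-1 and positive for c-kit, in which stem cells and early progenitors of blood are found. The groups were 3 libraries from HDAC6-deficient mice (KO) and 3 libraries from wild-type mice (WT), sequenced in bulk. HDAC6 is a class II, mainly cytoplasmic deacetylase, and the comparison addresses whether the nuclear class I enzymes and their partners had other mRNA levels in cells without it. The labels give the genotype as KO or WT only, with no strain, age or deleted exon, and do not say that each library came from its own animal, so a p-value here reflects the spread among libraries, which may be technical.

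Class I deacetylases remove acetyl groups from histone tails and from other nuclear proteins, and most act as subunits of large corepressors rather than as free enzymes. HDAC1 and HDAC2 are close paralogs shared by the NuRD, SIN3, CoREST and MiDAC complexes, HDAC3 is the enzyme of the NCoR complex and needs the corepressor to be active, and HDAC8 works outside these complexes, with the cohesin subunit SMC3 as a known substrate. In blood-forming cells, HDAC1 and HDAC2 are known to compensate for each other, and transcription factors such as GFI1B bring CoREST to their target genes.

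None of the 9 genes passed the test between KO and WT. Hdac2, the less abundant of the HDAC1/HDAC2 pair, had the largest fold change of the 9, with 35.2 ± 7.31 CPM in KO and 22.8 ± 4.85 CPM in WT (SD, n = 3 each), and Ncor1, the scaffold of the NCoR complex, had the lowest KO mean relative to WT, with 106 ± 3.99 CPM in KO and 134 ± 19.5 CPM in WT (SD, n = 3 each). Hdac1, Sin3a and Chd4 had log2 fold changes between -0.12 and 0.06. CPM here is the read count scaled to a common library size, with TMM factors, which adjust each library by the trimmed mean of its fold changes.

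Promoter sequence is shown for Hdac2 and Ncor1, the members with the smallest p on each side. The windows are the 250 bases before the annotated start, 5′ to 3′, from RefSeq on GRCm38.p6. For Ncor1 the more upstream of 2 starts is given. The window of its other start had 36.8% G and C and held no match. Capitals mark matches, on either strand, to the 8 motifs searched. These were the GC box GGGCGG, the NF-Y motif CCAAT, the TATA box TATAAA, the ETS motif CCGGAAG, the CRE core TGACG, the E-box CACGTG, the NRF1 motif and the YY1 motif AAGATGGC, none of them overlapping another match in these windows.
Hdac2, chr10:36974294-36974543, plus strand: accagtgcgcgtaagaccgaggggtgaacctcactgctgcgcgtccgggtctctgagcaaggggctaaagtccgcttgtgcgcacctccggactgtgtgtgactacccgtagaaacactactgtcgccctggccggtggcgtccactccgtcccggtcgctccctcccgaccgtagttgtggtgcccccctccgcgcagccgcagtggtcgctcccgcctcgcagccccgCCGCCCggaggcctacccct
Ncor1, chr11:62457333-62457582, minus strand: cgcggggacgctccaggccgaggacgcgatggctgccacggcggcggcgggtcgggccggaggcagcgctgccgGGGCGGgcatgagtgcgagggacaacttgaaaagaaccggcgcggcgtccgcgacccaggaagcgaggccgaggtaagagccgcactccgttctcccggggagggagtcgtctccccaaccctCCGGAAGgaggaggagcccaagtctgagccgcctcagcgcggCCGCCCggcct
Both windows shown are rich in G and C, with 68.8% for Hdac2 and 73.6% for Ncor1, against a median of 52.4% over all 32851 windows searched. The Hdac2 window held 1 GC box and no other match, and the Ncor1 window shown held 2 GC boxes and 1 ETS motif. GC boxes were found in 32.7% of all windows and ETS motifs in 6.91%. The set searched held 10 windows for 7 of the 9 genes, and 8 of these 10 held a GC box. Hdac1 and Hdac3 had no window in the set searched, so their promoters were not examined. The 2 Chd4 windows overlap and share a GC box, so the 10 windows are not all separate. By gene, 6 of the 7 with windows had a GC box in at least 1 window. A match describes the letters only.

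The targeted gene checked the labels. Hdac6 had 9.62, 7.69 and 11.3 CPM in KO replicates 1, 2 and 3, against 68.0, 58.2 and 54.3 CPM in WT replicates 1, 2 and 3, with an edgeR adjusted p of 0.000594. It was the 1 gene of 12875 that passed. Total counts ran from 25993971 to 28743672 per library. Of the sort markers, Kit had 725 to 1082 CPM in KO and 1127 to 1367 CPM in WT, and Ly6a, which encodes Sca-1, had 82.1 to 119 CPM in KO and 60.3 to 68.7 CPM in WT. Both were present in every library, but neither pair of groups overlapped. Their log2 fold changes were -0.54 for Kit and 0.71 for Ly6a, with an edgeR adjusted p of 0.298 each. Both passed DESeq2, with adjusted p of 0.0471 for Kit and 0.00718 for Ly6a, where 1.35% of its genes did. Of 8 neutrophil markers 7 lay below WT, with sums of 12.4 to 28.9 CPM in KO and 38.2 to 104 CPM in WT. Among these, Ltf, Ngp and S100a8 passed DESeq2 (adjusted p = 3.55e-05, 0.00124 and 0.0231), each with KO below WT. Of 6 tested T and NK cell markers 4 lay above WT, at a median of 1.53 on the log2 scale. Gzma and Ncr1 passed DESeq2, each at a low level and with overlapping groups. Gzma had 0.29, 7.47 and 2.43 CPM in KO replicates 1, 2 and 3, against 0.34 to 0.39 CPM in WT. For Ncr1, KO replicate 1 had 1.62 CPM, within the WT range of 0.65 to 2.54 CPM. Only KO replicates 2 and 3 lay above all WT libraries for these 2 genes. The 6 markers summed to 264 to 341 CPM in KO and 265 to 319 CPM in WT, mostly Nkg7. The defining T cell genes Cd3d, Cd3e and Cd3g did not pass the filter on low counts. Sums were 64.5 to 87.3 CPM in KO and 54.2 to 79.2 CPM in WT for 4 B cell markers, 891 to 1330 CPM in KO and 1064 to 1615 CPM in WT for 7 erythroid markers, mostly Car2, and 173 to 256 CPM in KO and 234 to 272 CPM in WT for 6 megakaryocyte markers. Erythroid markers had 3 of 7 tested genes above and 4 below WT, at a median of -0.53 on the log2 scale. In 1 of the 7 the groups did not overlap, with KO below WT. Car1 was the 1 erythroid marker past DESeq2 (adjusted p = 0.047), with a KO mean above WT and overlapping groups. The part of these cell types in the results below was not tested.

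KO replicate 3 lay nearer to the WT libraries than to the rest of its group. In counts over genes it differed from the 3 WT libraries by 25.8 to 35.5 times the sampling noise, but from KO replicates 1 and 2 by 58.4 and 53.8 times. KO replicates 1 and 2 also differed from each other by 45.8 times, against 35.1 to 39.2 times for pairs of WT libraries. Without KO replicate 3, edgeR called 30 genes higher and 14 lower over all genes and 0 of the 9. Hdac2 then had a log2 fold change of 0.76 (adjusted p = 0.116) and Ncor1 one of -0.32 (adjusted p = 0.248).

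Hdac2 encodes a catalytic subunit of NuRD, SIN3, CoREST and MiDAC. It had 43.2, 33.7 and 28.8 CPM in KO replicates 1, 2 and 3, against 26.7, 17.3 and 24.3 CPM in WT replicates 1, 2 and 3. The lowest KO library lay just above the highest WT library, so the groups did not overlap. KO exceeded WT by a fold of 1.55, a log2 difference of 0.63 (SE 0.21, 95% interval 0.16 to 1.10), with an unadjusted p of 0.0138 and an edgeR adjusted p of 0.309. DESeq2 gave an adjusted p of 0.129. Its p stood at place 570 of the 12875 genes tested.

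Hdac1, the paralog with the higher level, did not show that pattern. It had 292, 277 and 259 CPM in KO replicates 1, 2 and 3, against 284, 275 and 235 CPM in WT replicates 1, 2 and 3. The groups overlapped over most of their range. The difference was 0.06 on the log2 scale (SE 0.11, 95% interval -0.18 to 0.30, edgeR adjusted p = 0.822), and it changed sign to -0.01 when libraries were scaled by total count alone. Of the 50-base words in the longest protein-coding Hdac1 transcript of GENCODE M21, 58.7% also occurred in transcripts of other genes, most of them in Gm10093, which is not analysed here. The counting of reads that several genes share is not described by the sources at hand, which leaves the level of Hdac1 uncertain. For Hdac2, Hdac3, Hdac8, Mta2 and Chd4 that share was 0%.

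Hdac3 encodes the enzyme of the NCoR complex. It had 169, 157 and 156 CPM in KO replicates 1, 2 and 3, against 151, 150.1 and 135 CPM in WT replicates 1, 2 and 3. Each KO library lay above each WT library by a small margin, at a log2 fold change of 0.14 (SE 0.10, 95% interval -0.09 to 0.37, edgeR adjusted p = 0.552).

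Hdac8, an X-linked gene like Hdac6, encodes the class I enzyme that acts outside these corepressors. It had 28.4, 23.2 and 28.8 CPM in KO replicates 1, 2 and 3, against 30.5, 35.2 and 24.0 CPM in WT replicates 1, 2 and 3. The WT libraries spread more widely than the KO libraries and enclosed 2 of the 3 KO values. KO differed from WT by -0.16 on the log2 scale (SE 0.18, 95% interval -0.57 to 0.25, edgeR adjusted p = 0.722). The deposited Hdac8 counts were not whole numbers in any of the 6 libraries, as were those of Ncor1 in 5 of 6.

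**Figure D1:**
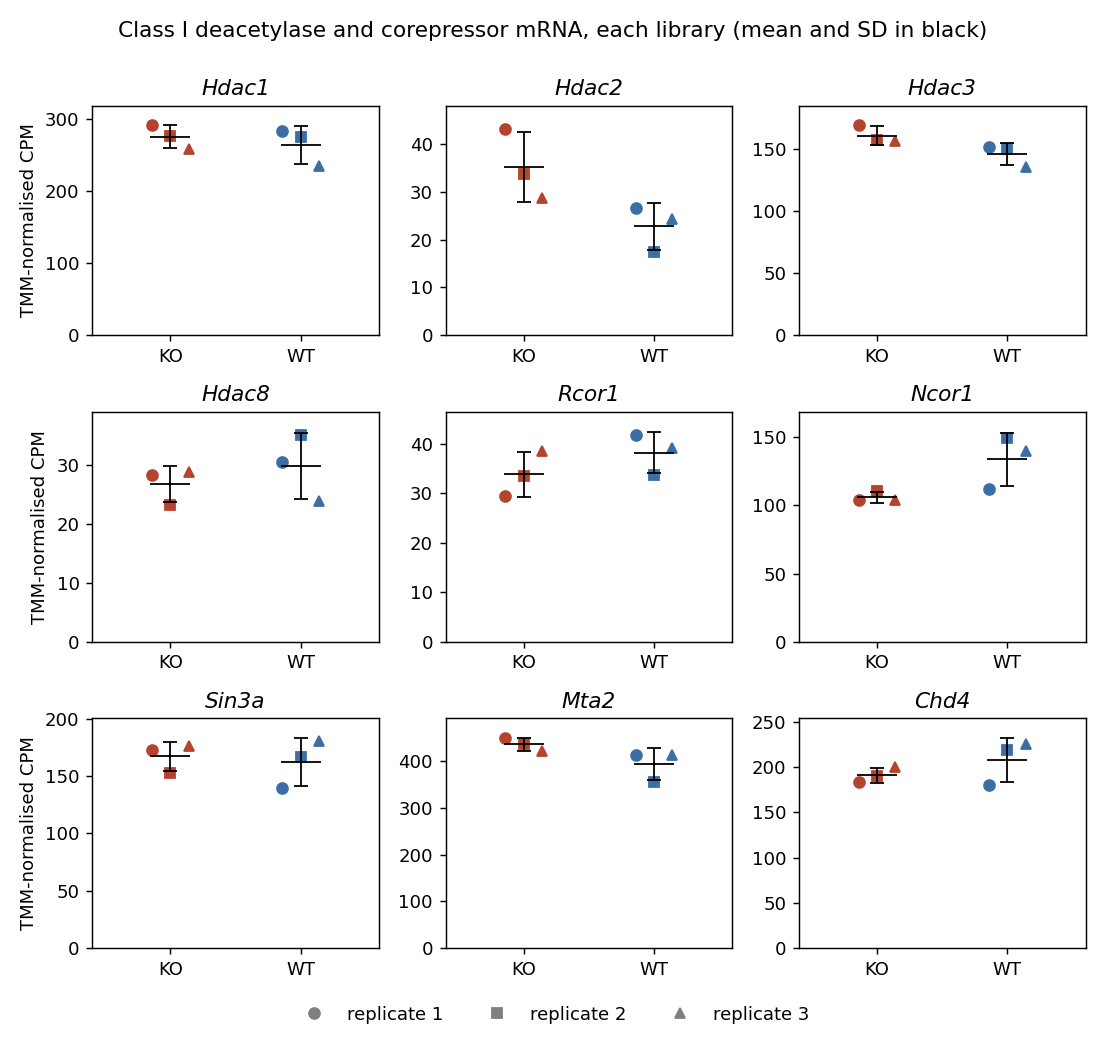
TMM-normalised CPM (vertical axes, each from 0) of the 9 genes in the 3 KO and 3 WT libraries, with symbols for the replicate number and the group mean and SD in black. Hdac2, Hdac3 and Mta2 had all KO libraries above all WT libraries, Ncor1 had all KO libraries below, and the other 5 genes overlapped between groups.

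Among the scaffolds, Ncor1 brings HDAC3 to nuclear receptors and other transcription factors. It had 104, 111 and 104 CPM in KO replicates 1, 2 and 3, against 112, 149.9 and 139.9 CPM in WT replicates 1, 2 and 3. The KO libraries lay close together and below every WT library, and WT replicate 1 stood near them. The log2 fold change was -0.34 (SE 0.13, 95% interval -0.62 to -0.055), with an unadjusted p of 0.0237 and an edgeR adjusted p of 0.329. With an offset for transcript length, described below, it was -0.16 (adjusted p = 0.519).

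Mta2 is a NuRD scaffold that binds HDAC1 and HDAC2 directly. It had 449.7, 437 and 422 CPM in KO replicates 1, 2 and 3, against 414, 355 and 413 CPM in WT replicates 1, 2 and 3. All KO libraries lay above all WT libraries, with WT replicate 2 well below the rest, at a log2 fold change of 0.15 (SE 0.10, 95% interval -0.07 to 0.37, edgeR adjusted p = 0.525). Chd4, the ATP-driven chromatin remodeller of NuRD, had 184, 189.9 and 199.8 CPM in KO replicates 1, 2 and 3, against 180.2, 219 and 225 CPM in WT replicates 1, 2 and 3. WT replicate 1 was the lowest of the 6 and the other 2 WT libraries the highest, so the groups overlapped, at a log2 fold change of -0.12 (SE 0.11, edgeR adjusted p = 0.649).

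Sin3a, the scaffold of the SIN3 complex, had 173, 153 and 176 CPM in KO replicates 1, 2 and 3, against 139.9, 167 and 181 CPM in WT replicates 1, 2 and 3. The WT libraries held both the lowest and the highest of the 6 values. The log2 fold change of 0.04 (SE 0.12, 95% interval -0.23 to 0.32, edgeR adjusted p = 0.891) was -0.03 with total count scaling. Rcor1, the CoREST protein that links HDAC1 and HDAC2 to the demethylase LSD1, had 29.5, 33.4 and 38.5 CPM in KO replicates 1, 2 and 3, against 41.8, 33.7 and 39.1 CPM in WT replicates 1, 2 and 3. KO replicate 3 and WT replicate 2 crossed between the groups. The log2 fold change was -0.17 (SE 0.16, 95% interval -0.53 to 0.18, edgeR adjusted p = 0.644).

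Read against all genes, 0 of the 9 passed edgeR, where 0.00777% of tested genes did, and 0 of the 9 passed DESeq2, where 1.35% of its 13373 genes did, 0.897% higher and 0.456% lower. At an unadjusted edgeR p under 0.05 stood 2 of the 9, Hdac2 above and Ncor1 below WT, against 13.4% of all genes, 7.24% above and 6.15% below WT. In 4 of the 9 genes the groups did not overlap, with KO above WT in 3 and below in 1, against 18.6% of all genes, 8.86% above and 9.7% below. That count was 2, Hdac2 and Ncor1, on the deposited FPKM values, and also 2 with total count scaling, while it was 4 with RLE size factors. It was 3 with upper-quartile scaling, where Hdac3 overlapped, and 3 with TMM and no filter on low counts, where Ncor1 overlapped. Of the 9, Hdac2 was the 1 gene whose groups stayed apart under all of these settings. The exact two-sided permutation p was 0.1 for each of the 4, the smallest that 3 against 3 can give. The median log2 fold change over the 9 genes was 0.04, against -0.003 over all tested genes, and the median size of the change regardless of sign was 0.15 against 0.21. For 8 of the 9 genes the 95% interval lay within 1 log2 unit on either side of 0, and the exception was Hdac2.

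**Figure D2:**
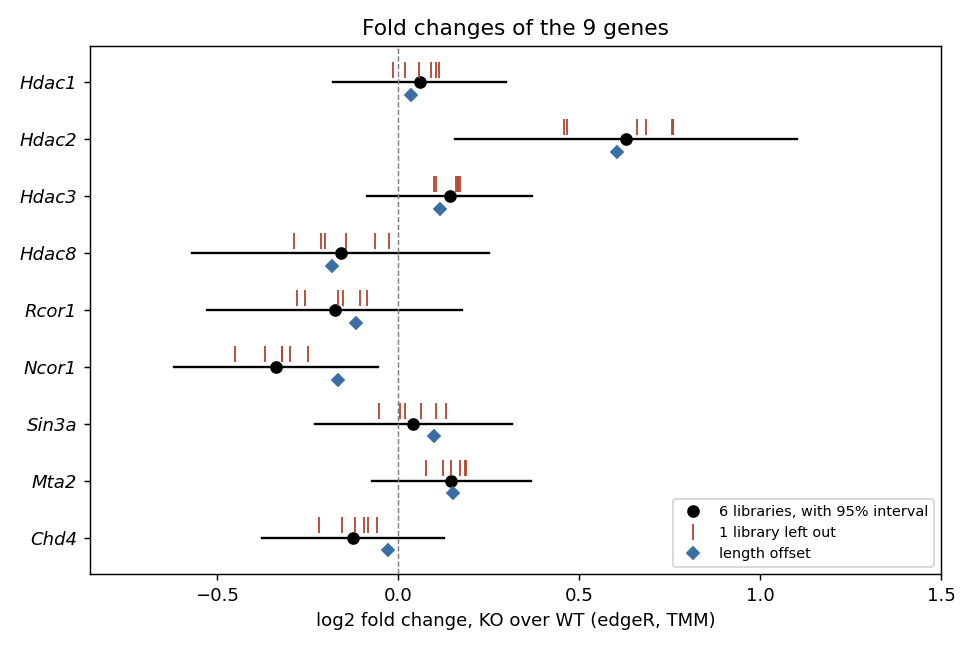
Log2 fold change of KO over WT by edgeR (horizontal axis) for the 9 genes, with the 95% interval as a line, the values with 1 library left out as red ticks and the value with the length offset as a blue diamond. The Hdac2 and Ncor1 intervals lie off 0 before adjustment, and the Ncor1 diamond, at -0.16, lies nearer to 0 than its point, at -0.34.

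Compared per transcript length, in FPKM as the authors deposited it, the genes spanned a wide range. Hdac1 had 153 ± 4.68 FPKM in KO and 155 ± 17.0 FPKM in WT, and Mta2 148 ± 1.56 and 140.4 ± 10.9 FPKM in KO and WT (SD, n = 3 each). Over all libraries, 94.5% of tested genes had a lower mean FPKM than Hdac1 and 94% a lower one than Mta2, and the 2 genes overlapped each other. Hdac3 followed with 87.6 ± 2.94 FPKM in KO and 83.5 ± 6.06 FPKM in WT, apart from its neighbours in the order. Sin3a, at 33.8 ± 3.19 FPKM in KO and 34.2 ± 4.25 FPKM in WT, overlapped Chd4, at 29.7 ± 2.27 FPKM in KO and 33.9 ± 3.95 FPKM in WT.

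Below these, Hdac2, Hdac8 and Ncor1 overlapped each other in level, and their order by mean FPKM was not the same in the 2 groups. In KO libraries Hdac2 had 16.3 to 23.0 FPKM, Hdac8 12.8 to 16.5 FPKM and Ncor1 11.8 to 12.7 FPKM. In WT libraries Hdac2 had 10.1 to 15.3 FPKM, Hdac8 12.3 to 20.3 FPKM and Ncor1 14.01 to 18.7 FPKM. Hdac2 thus stood highest of these 3 by mean in KO and lowest in WT. Rcor1 was the lowest of the 9 at 6.07 ± 1.01 FPKM in KO and 7.18 ± 0.739 FPKM in WT.

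By the deposited FPKM, and with the doubt on shared Hdac1 sequence given above, Hdac1 had the largest share of class I deacetylase mRNA. Its share of the summed FPKM of the 4 enzymes was 55.0%, 56.8% and 55.2% in KO replicates 1, 2 and 3, against 58.2%, 58.1% and 56.9% in WT replicates 1, 2 and 3. Hdac3 held 31.4% to 32.6% in KO and 30.4% to 32.2% in WT. Hdac2 held 7.98%, 6.79% and 6.03% in KO replicates 1, 2 and 3, against 5.37%, 3.59% and 5.77% in WT replicates 1, 2 and 3. Every KO share of Hdac2 lay above every WT share, and KO replicate 3 and WT replicate 3 were nearest to each other. Hdac8 held 4.79% to 6.09% in KO and 5.17% to 7.26% in WT.

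The ratio of Hdac1 to Hdac2 mRNA per length was 6.90, 8.36 and 9.17 in KO replicates 1, 2 and 3, against 10.8, 16.2 and 9.85 in WT replicates 1, 2 and 3. The sum of Hdac1 and Hdac2 nevertheless overlapped between the groups, at 166 to 181 FPKM in KO and 149 to 181 FPKM in WT, since Hdac1 supplied most of it. The ratio of Hdac3 to its scaffold Ncor1 was 7.66, 6.65 and 7.05 in KO replicates 1, 2 and 3, against 6.20, 4.66 and 4.41 in WT replicates 1, 2 and 3. These ratios combine genes already described, were chosen with their values known, and carry no test. Those with Hdac1 share the doubt on its level. The ratio of Hdac3 to Ncor1 sets a gene of 1.79 kb against one of 8.33 kb. Of all tested genes over 7 kb, 73.7% lay below WT, as described below.

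**Figure D3:**
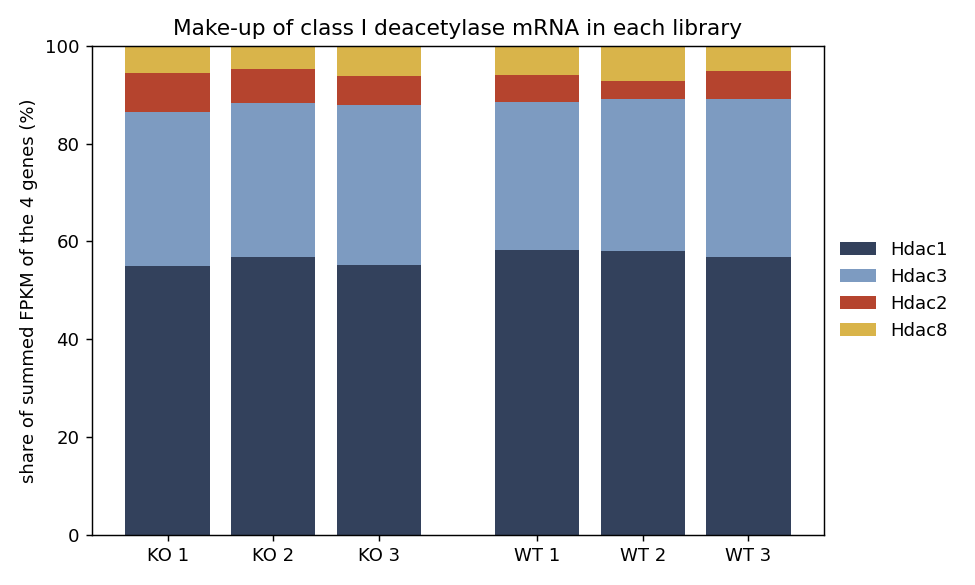
Share of each class I deacetylase gene in the summed FPKM of the 4 genes (vertical axis, percent) for each KO and WT library. Hdac1 fills 55.0% to 58.2% of every bar, and the Hdac2 segment is 6.03% to 7.98% in KO libraries and 3.59% to 5.77% in WT libraries.

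Subunit genes of the complexes put these levels in context. The 5 complex lists held 52 different tested genes, with 23 above and 29 below WT. Their log2 fold changes had a median of -0.10, and 13 genes, or 25.0%, with groups that did not overlap, against 18.6% of all genes. By edgeR 0 of them passed, and DESeq2 also called 0. At an unadjusted edgeR p under 0.05 stood 13 of the 52, also 25.0%, against 13.4% of all genes. The lists were chosen with earlier results of these data known. In bulk RNA, fewer cells of a type and less mRNA per cell cannot be told apart.

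NuRD subunits lay on both sides, with 8 of 14 tested genes above WT, a median of 0.04 on the log2 scale and 0 that passed. Gatad2a, which joins the remodeller to the deacetylase module of NuRD, had 103, 103 and 79.8 CPM in KO replicates 1, 2 and 3, against 57.7, 53.1 and 84.2 CPM in WT replicates 1, 2 and 3, so KO replicate 3 and WT replicate 3 crossed. The other MTA scaffolds had KO means below WT: Mta1 had 14.7 to 17.7 CPM in KO and 18.9 to 24.2 CPM in WT, a log2 fold change of -0.51 (SE 0.19, edgeR adjusted p = 0.327), and Mta3 had a log2 fold change of -0.25 with overlapping groups.

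SIN3 subunits had 11 of 19 tested genes above WT and a median of 0.01, and 0 passed. Ogt, the O-GlcNAc transferase that associates with SIN3A, had 264, 329.6 and 289.8 CPM in KO replicates 1, 2 and 3, against 346, 414 and 443 CPM in WT replicates 1, 2 and 3. All KO libraries lay below all WT libraries, at a log2 fold change of -0.45 (SE 0.12, edgeR adjusted p = 0.298). Sap30, a subunit that stabilises the complex, had 5.26 to 11.8 CPM in KO and 2.33 to 6.61 CPM in WT, with overlapping groups. Brms1l had 23.3 to 27.1 CPM in KO and 30.4 to 35.6 CPM in WT.

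CoREST was the complex with the most genes below WT, 11 of 15, with a median log2 value of -0.17 against -0.003 over all genes, and 0 passed. Rcor1 itself stood at this median. The median was -0.115 with the length offset described below, -0.277 without KO replicate 3 and -0.119 without KO replicate 1. Its paralog Rcor3 had 21.9 to 26.2 CPM in KO and 26.2 to 33.9 CPM in WT (log2 fold change -0.42, edgeR adjusted p = 0.347). Gse1 and Phf21a, a reader of unmethylated histone H3, had log2 fold changes of -0.33 each, with all KO libraries below all WT libraries. Kdm1a, which encodes LSD1, had 11.96 to 13.8 CPM in KO and 12.7 to 20 CPM in WT.

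In the NCoR complex, 5 of 7 tested genes had KO means above WT with TMM scaling. Coro2a, a coronin found in the complex, had 243, 215 and 232 CPM in KO replicates 1, 2 and 3, against 181, 135 and 196 CPM in WT replicates 1, 2 and 3, a log2 fold change of 0.43 (SE 0.14, edgeR adjusted p = 0.307). Gps2 had 67.9 to 80.6 CPM in KO and 50.7 to 60.2 CPM in WT (log2 fold change 0.38, edgeR adjusted p = 0.309). Neither pair of groups overlapped. Of the 7 genes 0 passed. The 3 MiDAC genes beside Hdac1 and Hdac2, which are Mideas, Dnttip1 and Trerf1, had log2 fold changes of -0.001, 0.30 and -0.28 with overlapping groups.

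**Figure D4:**
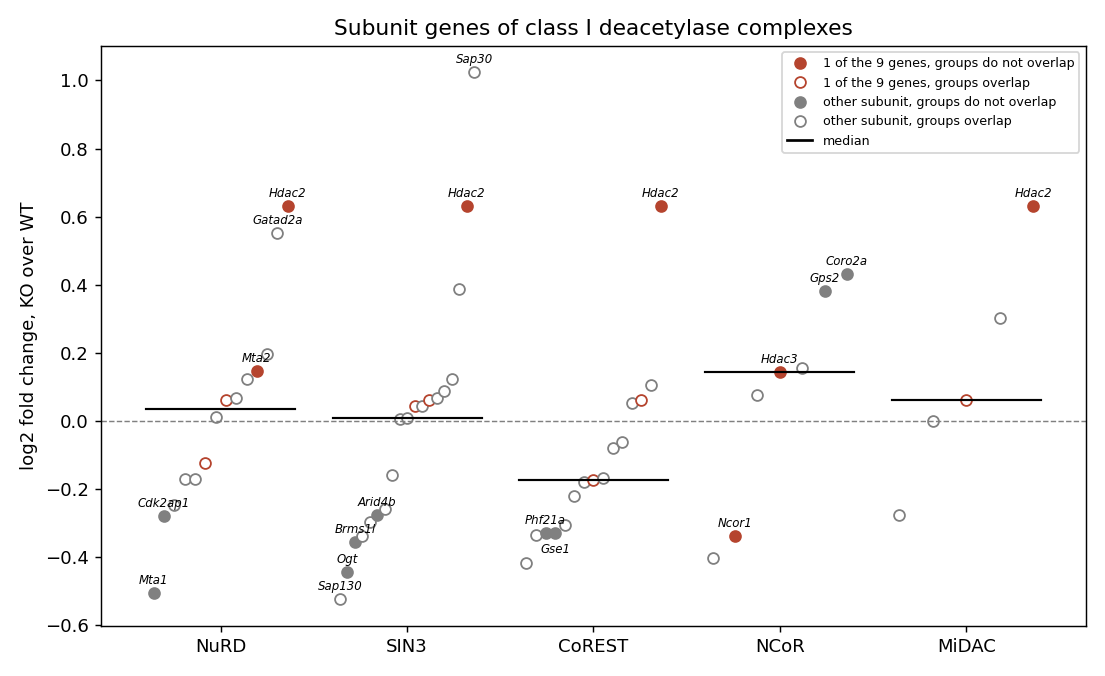
Log2 fold change of KO over WT (vertical axis) for tested subunit genes of 5 class I deacetylase complexes, sorted within each, with the median as a line. Filled symbols mark genes whose KO and WT libraries did not overlap, red marks the 9 genes described here, and Hdac1 and Hdac2 appear in each complex that holds them.

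The 3 genes of the 9 with the longest transcripts, Ncor1, Chd4 and Rcor1, all had KO means below WT, and long genes did so in general. The length that the deposited FPKM implies was 8.33 kb for Ncor1, 6.28 kb for Chd4 and 5.45 kb for Rcor1, and 1.75 to 1.79 kb for the 4 enzymes. Over all tested genes, the median log2 fold change was 0.05 for 2829 genes under 1.5 kb, 0.02 for 4556 genes from 1.5 to 3 kb, -0.01 for 3441 genes from 3 to 5 kb, -0.09 for 1217 genes from 5 to 7 kb and -0.18 for 832 genes over 7 kb. Of the genes over 7 kb, 73.7% lay below WT. Their median deviation from the 6-library mean of log2 CPM was -0.19, -0.12 and 0.02 in KO replicates 1, 2 and 3, against -0.06, 0.17 and 0.19 in WT replicates 1, 2 and 3. For Ncor1 the deviations were -0.19, -0.10 and -0.19 in KO replicates 1, 2 and 3, against -0.08, 0.34 and 0.24 in WT replicates 1, 2 and 3. In both cases WT replicates 2 and 3 were high and WT replicate 1 was not. KO replicate 3 was unlike, at 0.02 for the genes over 7 kb and -0.19 for Ncor1. Rcor1 had another order, with 0.22 in WT replicate 1 and -0.09 in WT replicate 2.

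With a length offset in the edgeR fit, added after the data were seen, the log2 fold change was -0.16 for Ncor1, -0.03 for Chd4 and -0.11 for Rcor1, and that of Hdac2 was 0.60 (adjusted p = 0.318). Whether RNA integrity or library preparation differed between the libraries was not tested.

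**Figure D5:**
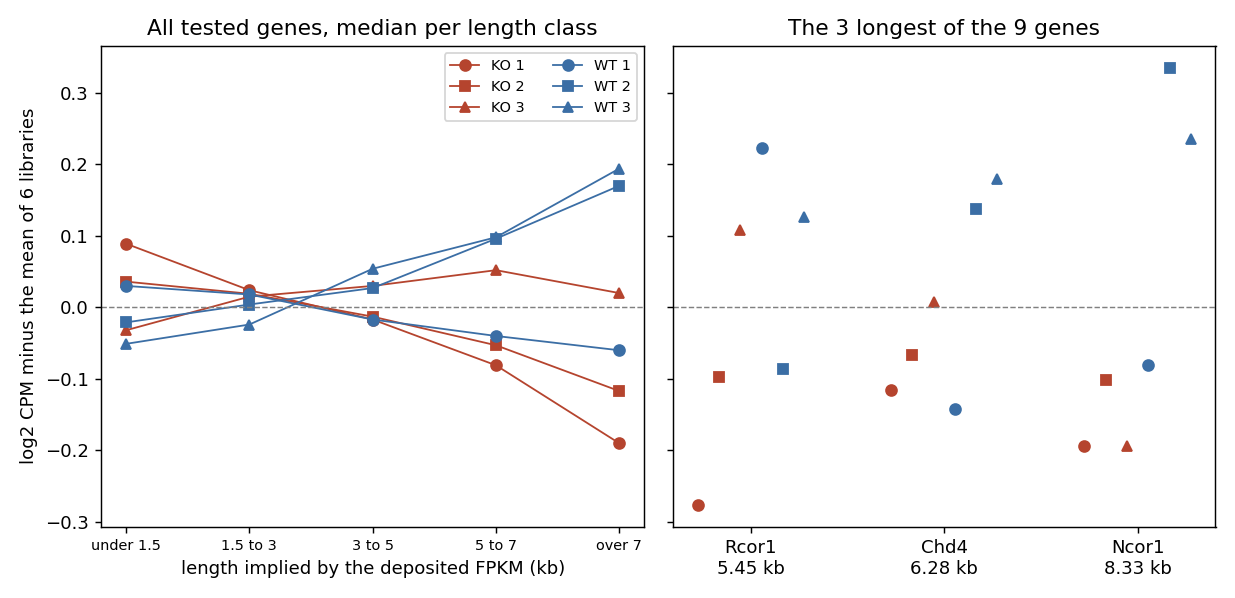
Left, median log2 CPM deviation from the mean of the 6 libraries (vertical axis) for all tested genes in 5 classes of implied length, by library. Right, the same deviation for Rcor1, Chd4 and Ncor1; WT replicates 2 and 3 are highest among genes over 7 kb and for Ncor1.

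Cell cycle markers, like Hdac2, mostly had higher KO means. Of 13 such genes 12 lay above WT and 9 had groups that did not overlap, all with KO above WT, as in 8.86% of all genes. By edgeR 0 passed, and DESeq2 called 2, Plk1 and Ccna2, against 1.35% of all genes. Their mean deviation from the 6-library mean of log2 CPM was 0.38, 0.20 and -0.03 in KO replicates 1, 2 and 3, against -0.20, -0.25 and -0.11 in WT replicates 1, 2 and 3, and their summed level was 3730 to 4793 CPM in KO and 3299 to 3597 CPM in WT. The Hdac2 deviations were 0.63, 0.27 and 0.04 in KO replicates 1, 2 and 3, against -0.06, -0.68 and -0.20 in WT replicates 1, 2 and 3, so KO replicate 1 was highest and WT replicate 2 lowest in both. Plk1, a mitotic kinase, had a log2 fold change of 0.58 and Ccna2, which encodes cyclin A2, of 0.81 (edgeR adjusted p = 0.298 each). The part of cell cycle state in the level of Hdac2 was not tested.

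Across the 6 libraries, the log2 CPM values of Hdac2 and Mta2 had a Pearson r of 0.95, the highest among pairs of the 9 genes, and those of Hdac2 and Ncor1 an r of -0.85, the lowest. Over all tested genes with a mean of at least 5 CPM, the 3 most like Hdac2 were Polr1e, a subunit of RNA polymerase I, at r = 0.998, Taf5l, at r = 0.996, and Cul5, a cullin, at r = 0.993. For Hdac1, the member with the highest FPKM, they were Psmd10, a proteasome assembly factor, and Qtrt1, a tRNA-modifying enzyme, at r = 0.991 each, and Ndufaf7, a mitochondrial assembly factor, at r = 0.988. These correlations rest on 6 points that share library and group, and 461 of 10104 genes had an r above 0.9 with Hdac2, so they serve as descriptions.

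Genes that act with or against the class I enzymes gave further context. Among factors that recruit corepressors, 10 of 17 tested genes lay below WT. Their median was -0.18 on the log2 scale, and 0 passed. It was -0.101, -0.115 and -0.095 without WT replicate 1, 2 or 3 in turn. Gfi1b, a repressor that brings in CoREST, had 59.7, 65.2 and 77.2 CPM in KO replicates 1, 2 and 3, against 98.9, 91.0 and 79.2 CPM in WT replicates 1, 2 and 3, a log2 fold change of -0.41 (SE 0.14, edgeR adjusted p = 0.309). Its groups did not overlap, and KO replicate 3 lay next to WT replicate 3. Runx1t1, the ETO corepressor gene, had at most 0.40 CPM in KO and 0.68 to 1.10 CPM in WT, and the MAX partner gene Mxd4 had 1.47 to 2.18 CPM in KO and 0.67 to 0.87 CPM in WT, both near the level at which counts are few.

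Lysine acetyltransferase genes, the enzymes that add the marks class I deacetylases remove, lay below WT in 10 of 13 cases with a median of -0.13, and 0 passed edgeR. All 5 of the list with an implied length over 7 kb lay below WT, and with the length offset the median was -0.065, with 7 of 13 below. Leaving out WT replicate 2 gave a median of -0.084. Hat1, which acetylates newly made histone H4 and was the 1 gene of the list past DESeq2, had 260, 229.8 and 212 CPM in KO replicates 1, 2 and 3, against 173, 177 and 167 CPM in WT replicates 1, 2 and 3. Each KO library lay well above each WT library. KO exceeded WT by 0.44 on the log2 scale (SE 0.11), with an edgeR adjusted p of 0.298 and a DESeq2 adjusted p of 0.0289. Kat6b had 15.8 to 22.1 CPM in KO and 23.7 to 30.4 CPM in WT, and Crebbp, which encodes the coactivator CBP, 61.5 to 81.1 CPM in KO and 78.3 to 104 CPM in WT.

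Of the class II and IV deacetylases 6 of 7 lay below WT, a count that includes the targeted gene Hdac6, which alone passed. Hdac5 was the 1 gene above WT, at a log2 fold change of 0.32 with overlapping groups. Hdac11 had 6.16 to 8.12 CPM in KO and 9.77 to 15.0 CPM in WT, and Hdac9 4 to 8.95 CPM in KO and 9.33 to 13.2 CPM in WT. Genes of cyclin-dependent kinase inhibitors, of which Cdkn1a is a known target of HDAC1-containing corepressors, had 4 of 5 below WT with overlapping groups and 0 that passed. Cdkn1a itself had 37.0, 38.8 and 26.5 CPM in KO replicates 1, 2 and 3, against 31.9, 30.2 and 33.1 CPM in WT replicates 1, 2 and 3. The KO libraries lay on both sides of the WT range, at a log2 fold change of 0.10 (SE 0.17, edgeR adjusted p = 0.809).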

How the data were processed

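Trizol RNA was sequenced on Illumina libraries, per the labels' protocols. GRCm39 is the build listed in the submitters' processing notes, beside the tools DESeq2, featureCounts 2.0.3, SAMtools 1.13 and HISAT2 2.2.1. Annotation, strand setting and treatment of shared reads: not given in the sources used here.

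Per the file headers, the deposited table pairs estimated counts with FPKM for each symbol and library. In each library 19.6% to 20.9% of these counts were not whole (tolerance 1e-06), and all were rounded. The FPKM values of the authors served for levels per length, the implied length and 2 alternatives.

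KO was compared with WT by edgeR 4.0.16 in R 4.3.3 (filterByExpr, minimum count 10, TMM, robust glmQLFit and glmQLFTest), with Benjamini-Hochberg adjustment over 12875 genes and a threshold of 0.05. Intervals are on the log2 scale and SE is the log2 fold change over the root of F. DESeq2 1.42.0 and limma 3.58.1 gave alternatives. Depth allowed a limit of 0.104 to 0.115 CPM for a count of 0 (3 counts), for counting error only. Library pairs differed by 25.8 to 91.4 times the sampling noise (chi-square per degree of freedom), and none was taken as a duplicate. The fits were tested on simulated data.

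Members and lists were chosen with earlier results of these data known. Named genes are the 9 members, Hdac6, up to 3 genes of smallest p per list, and the 3 genes most correlated with the member of smallest p and the member of highest FPKM. Kdm1a, Cdkn1a, Hdac5, Kit, Ly6a, Gzma, Ncr1, Nkg7, Car1, Car2, Ltf, Ngp and S100a8 were added after their values were seen. RefSeq promoter windows are on GRCm38.p6, not the authors' build, and were matched by symbol.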

Additional observations from a re-analysis of the deposited data

How the results depend on the processing

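Over 19 alternatives for each of the 9 genes, 0 passed the threshold, with a lowest adjusted p of 0.116, and 162 of 171 values kept their sign. Those that did not were of Hdac1 and Sin3a: with total count scaling -0.015 for Hdac1 and -0.029 for Sin3a, with limma on log2(FPKM + 1) -0.007 and -0.015, with limma on log2(FPKM + 0.1) -0.007 and -0.016, with upper-quartile scaling -0.008 for Sin3a, and with 1 library left out a range of -0.012 to 0.115 for Hdac1 (negative without WT replicate 3) and of -0.053 to 0.133 for Sin3a (negative without WT replicate 1). Total count scaling moved the median of all genes to -0.078. The log2 fold change with 1 library left out ran from 0.46 to 0.76 for Hdac2 and from -0.45 to -0.25 for Ncor1.

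The median of the 9 genes was -0.029 with total count scaling, -0.015 with limma on log2(FPKM + 1) and -0.016 with limma on log2(FPKM + 0.1). Over all tested genes the median was lower in each of these settings, at -0.078, -0.052 and -0.063 in the same order. In the main fit the medians were 0.043 for the 9 genes and -0.003 for all genes. With 1 library left out the median of the 9 genes ran from -0.053 to 0.063. Groups of 2 of the 9 genes did not overlap with total count scaling or on the deposited FPKM. DESeq2 called 120 genes higher and 61 lower over all genes. With 1 library left out, edgeR called 0 to 30 higher and 1 to 14 lower, the most without KO replicate 3. Total count scaling gave list medians of -0.039 for NuRD, -0.067 for SIN3, -0.244 for CoREST and 0.067 for NCoR. With 1 library left out these ran from -0.034 to 0.079 for NuRD, from -0.040 to 0.063 for SIN3 and from -0.277 to -0.119 for CoREST, which was -0.115 with the length offset. The cause of these differences was not tested.

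With the replicate number as a block, 0 genes were higher and 1 lower, the fold changes were 0.633 for Hdac2 and -0.327 for Ncor1 (adjusted p = 0.456 each), and the 9 genes kept their calls. Same-numbered libraries deviated with correlations of 0.095, -0.123 and -0.211, so the numbers were not taken as pairs.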
